A study of Mus musculus with 16 samples.

Results

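Hamstring muscle of mice given an HRS-MBP fusion protein was compared with hamstring muscle of mice given only PBS, by bulk RNA sequencing of whole tissue. HRS is histidyl-tRNA synthetase, the enzyme that loads histidine onto its tRNA and the target of anti-Jo-1 autoantibodies in myositis. The members were chosen by label: the 2 libraries of mice m860 and m861, whose titles name an MBP fusion of the protein, and the 4 libraries of mice m867 and m868, whose treatment was PBS in both legs. These are 6 of the 16 libraries and 4 of the 9 mice of the series. Libraries of the other 5 mice (m862 to m866), with HRS in the left leg (HRS leg) and PBS in the right leg (PBS leg), served only to estimate the spread and as a reference.

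All mice were female C57BL/6, aged 8 to 10 weeks, and muscle was collected on day 14 after injection of 100.0 μL in all, divided over both hamstrings by the general protocol. The HRS-MBP titles give 2 to 3 mg/mL, whereas their treatment label gives HRS at 3 to 5 mg/mL, the range of the HRS legs. No leg is stated for m860 and m861, and what MBP stands for is not stated in the sources used here. No group received MBP without HRS, so HRS and its fusion partner cannot be told apart in this comparison. Each HRS-MBP mouse gave 1 library and each PBS-only mouse gave 1 per leg, and the 2 legs of a PBS-only mouse were averaged so that the mouse was the unit. More than 1 sequencing instrument was used and the labels do not tie libraries to them, so that instrument and treatment cannot be told apart.

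Immunization with HRS elicits CD4+ T cells that enter muscle, and part of such cells can stay in the tissue as resident memory T cells (TRMs). IFN-γ, the main cytokine of Th1 cells, acts through its receptor and switches on chemokines, guanylate-binding proteins and the genes of antigen presentation in both immune cells and muscle fibres. In inflamed muscle, RNA of infiltrating cells is added to that of fibres, and bulk RNA sums both.

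The values are normalized counts as deposited, with library totals between 726797 and 1252358, and the implied depth of the 6 libraries ran from 8600000 reads (right leg of m868) to 40700000 (right leg of m867). The HRS-MBP libraries held 39600000 and 37300000 reads. A value of 1 read was worth 0.0204 to 0.121 normalized counts, and 3 reads in the shallowest library came to 0.364. Genes that mark skeletal muscle fibres were high in every library: the 10 markers summed to 82456 and 80201.0 in the HRS-MBP mice and to 185264 to 224781 in the PBS-only legs. The label of muscle was therefore met in all 6, with lower fibre levels in both HRS-MBP libraries. Mitochondrially encoded RNA made up 5.94% and 6.98% of the HRS-MBP totals and 11.3% to 13.1% of the PBS-only totals. The 100 highest genes took 35.0% and 36.0% of the HRS-MBP totals but 51.1% to 52.8% of the PBS-only totals.

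Of 16414 tested genes, 3214 (19.6%) were higher and 1521 (9.27%) were lower in HRS-MBP than in PBS-only mice, by limma with Benjamini-Hochberg adjusted p under 0.05 and an absolute log2 fold change above 1. These 4735 calls were 28.8% of the tested genes. Both HRS-MBP libraries lay above all 4 PBS-only libraries for 6528 genes (39.8%) and below them for 5027 (30.6%), so that a lack of overlap alone was common. The median log2 fold change over all tested genes was 0.11. Because the data are from whole tissue, fewer cells of a type and less RNA per cell cannot be told apart in any result given here. The share of higher calls depended on scaling. It was 67.9% as reported, 89.5% after scaling each library to the same total (4655 higher, 547 lower), 47.4% after quantile normalization (2399 and 2664) and 40.02% after centring each library on its median gene (2306 and 3456). The median of all genes under these 3 scalings was 0.52, -0.23 and -0.32. Under these 3 scalings the IFN-γ list had 27 to 30 of 30 genes called higher, the type I interferon list 22 to 24 of 25, and class II (11), class I (20) and the T cell receptor list (18) all of their tested genes, each with 0 lower. Counts of lower muscle and metabolic genes moved with the scaling, and those under the 3 scalings are given beside most of these lists in this order. They also moved without the HRS leg of m866, which enters the fit only through the shared spread.

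**Figure D1:**
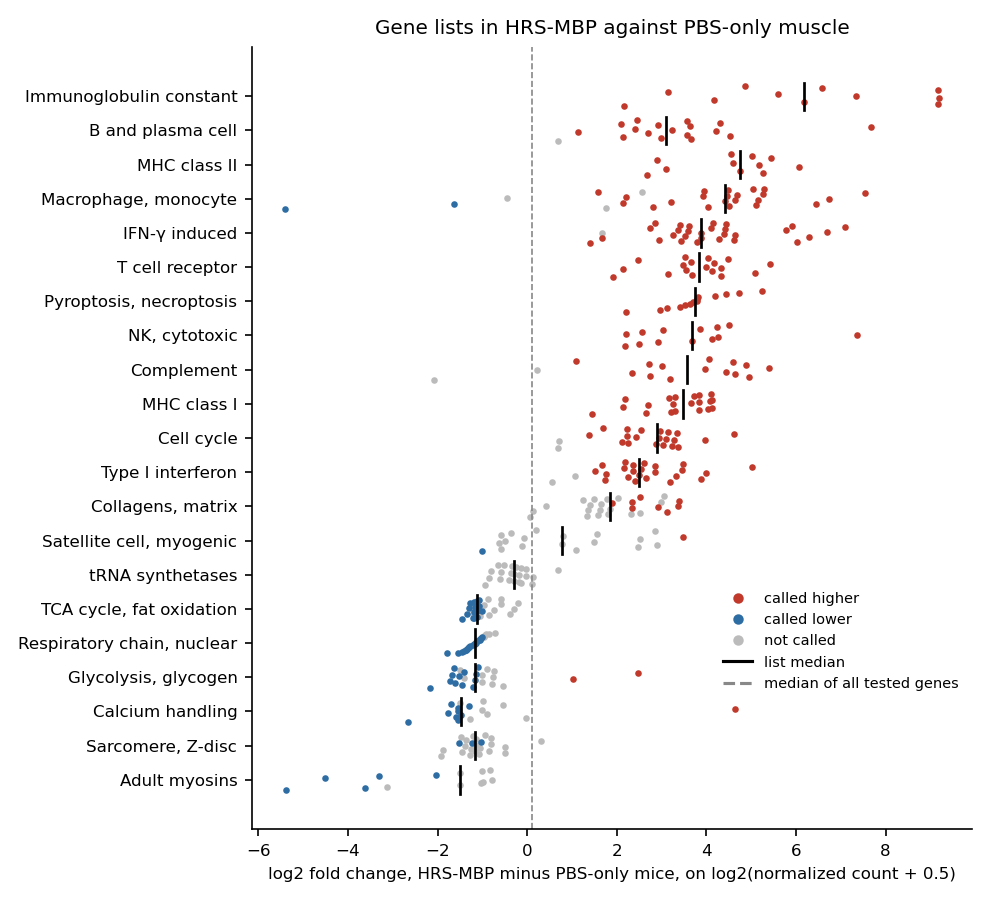
Each point is 1 gene of a list, placed by its log2 fold change between HRS-MBP and PBS-only mice (2 mice each), with the list median as a bar and the median of all tested genes (0.11) as a dashed line. Points of the immune lists lie almost all to the right and are called higher (red), those of the metabolic and contractile lists lie mostly to the left and are called lower (blue) or not called (grey) apart from 3 called higher, and the tRNA synthetases sit close to 0.

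The cytokine at the head of the IFN-γ pathway was itself detected. *Ifng* (ENSMUSG00000055170.4, GRCm38 chr10:118441046-118445892), which encodes IFN-γ, stood at 2.44 and 3.79 normalized counts in m860 and m861. In the PBS-only libraries, given here and below in the order m867 right leg, m867 left leg, m868 right leg and m868 left leg, it stood at 0.0284, 0, 0.243 and 0. Divided by the worth of 1 read and rounded, *Ifng* came to 120 and 170 reads in the HRS-MBP libraries and 3 in the 4 PBS-only libraries together, so that the groups did not overlap. From these pooled values the ratio was 85.8, with an approximate 95% interval of 29.1 to 419 that covers counting error only and takes the rounded values as whole reads. The log2 fold change was 2.67 ± 0.61 (SE, adjusted p = 0.00481, limma), on the scale of log2(normalized count + 0.5), which understates the change of low genes.

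Genes induced by IFN-γ rose as a group. Of 30 listed chemokines, guanylate-binding proteins and regulators, 29 were called higher and none lower, beside 19.6% and 9.27% of all tested genes, with a list median of 3.88. The remaining gene, *Ido1*, a tryptophan-degrading enzyme, had a log2 fold change of 1.68 (adjusted p = 0.0835, limma). *Cxcl9*, the chemokine that draws CXCR3+ T cells, was at 547 and 438 in the HRS-MBP mice and at 3.15, 3.92, 10.1 and 8.28 in the PBS-only legs. Both HRS-MBP values were far above all 4 controls, and the log2 fold change was 6.30 ± 0.95 (adjusted p = 0.000379, limma). *Gbp2b*, a guanylate-binding GTPase, was at 105 and 126 against 0.313, 0.365, 1.46 and 0.652 (log2 fold change 6.69). *Acod1*, the mitochondrial enzyme that makes itaconate in activated macrophages, was at 142 and 173 against 0.398, 0.607, 1.33 and 0.456 and had the largest log2 fold change of the list (7.10 ± 0.64). The transcription factor *Irf1* was at 219 and 262 against 13.1, 9.88, 30.7 and 32.4 (log2 fold change 3.62), and the immunity-related GTPase *Igtp* at 657 and 529 against 14.9, 14.9, 51.2 and 51.0 (4.39).

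Promoters of 3 members are printed because they hold the 2 letter patterns through which interferon signals reach DNA. Each is the 250 bases before the RefSeq start (GRCm38.p6), 5′ to 3′ on the strand of the gene. Capitals mark GAS (TTCNNNGAA, the gamma-activated sequence) or ISRE (GAAA, any 2 bases, then GAAA, on either strand, bound by interferon-regulatory factors).
Irf1, chr11:53769764-53770013, plus strand: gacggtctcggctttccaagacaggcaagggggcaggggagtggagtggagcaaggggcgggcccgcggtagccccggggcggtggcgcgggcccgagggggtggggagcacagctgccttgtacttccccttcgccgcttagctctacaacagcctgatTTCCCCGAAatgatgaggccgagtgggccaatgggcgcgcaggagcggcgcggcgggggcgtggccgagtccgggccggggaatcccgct
Gbp2b, chr3:142594597-142594846, plus strand: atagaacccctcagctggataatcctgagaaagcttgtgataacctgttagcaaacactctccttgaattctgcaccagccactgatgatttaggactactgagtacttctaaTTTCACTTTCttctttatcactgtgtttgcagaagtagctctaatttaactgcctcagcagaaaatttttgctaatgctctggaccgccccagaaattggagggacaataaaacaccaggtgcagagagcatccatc
Igtp, chr11:58199306-58199555, plus strand: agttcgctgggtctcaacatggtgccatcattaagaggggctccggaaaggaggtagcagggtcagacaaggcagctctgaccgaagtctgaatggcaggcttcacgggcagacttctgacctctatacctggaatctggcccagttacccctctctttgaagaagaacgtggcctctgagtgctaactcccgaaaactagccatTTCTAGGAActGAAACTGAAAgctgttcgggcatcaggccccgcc
The GAS of *Irf1* began 90 bases before the start, the ISRE of *Gbp2b* 137 bases before it, and *Igtp* held a GAS at 45 and an ISRE at 34 bases. A RefSeq promoter (250 bases before to 50 after the start) was matched for 11341 of the 16414 tested genes (69.1%). Searched on both strands, GAS occurred in 8 of 18 matched promoters of the IFN-γ list and in 6.82% of all matched promoters, and ISRE in 12 of 18 and in 3.27%. The patterns overlapped in 11 of the 11341 promoters and in none of the 18. A match describes letters only and is not a measured site.

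Type I interferon-stimulated genes, the antiviral set shared with IFN-γ signalling, rose too. Of 25 tested, 23 were called higher and 0 lower, with a median of 2.49. *Zbp1*, a sensor of Z-form nucleic acids, was at 86.0 and 87.3 against 1.08, 0.728, 4.61 and 4.76 (log2 fold change 5.02 ± 0.56). *Mx1*, a dynamin-like antiviral GTPase, was at 15.3 and 17.7 against 0.568, 0.202, 0.243 and 1.76 (4.0), and *Oas3*, an oligoadenylate synthetase, at 20.8 and 15.9 against 0.568, 0.323, 1.09 and 1.37 (3.88). In all 3 the HRS-MBP libraries lay above every PBS-only leg. *Ifit3b* and *Ifi27l2a* were not called, at log2 fold changes of 1.07 and 0.56. ISRE occurred in 11 of 18 matched promoters of this list and GAS in 3 of 18.

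Antigen presentation rose in full. All 11 tested MHC class II genes were called higher (median 4.74), and so were all 20 tested genes of MHC class I and peptide loading (median 3.48). *H2-Ab1*, the β chain of I-A, was at 1498 and 1918 in the HRS-MBP mice against 33.8, 20.7, 64.4 and 49.0 in the PBS-only legs. The groups were apart by more than an order of magnitude, and the log2 fold change was 5.44 ± 0.74 (adjusted p = 0.000196, limma). *H2-Eb1*, the β chain of I-E, had a log2 fold change of 5.26. *Ctss*, the lysosomal protease that trims the invariant chain, rose from 11.6, 8.98, 23.9 and 13.2 to 791 and 1101 (log2 fold change 6.06). In class I, the non-classical *H2-Q7* was at 387 and 379 against 14.0, 11.8, 32.4 and 39.2 (4.12) and *Nlrc5*, the transactivator of class I genes, at 77.8 and 74.5 against 2.59, 1.78, 6.43 and 7.69 (4.10). *H2-Q6* changed by 4.12, and since it is closely related to *H2-Q7*, reads of this family can be split uncertainly between them. Of 9 matched class II promoters 1 held a GAS and 1 an ISRE, and of 17 class I promoters 2 held a GAS and 5 an ISRE.

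**Figure D2:**
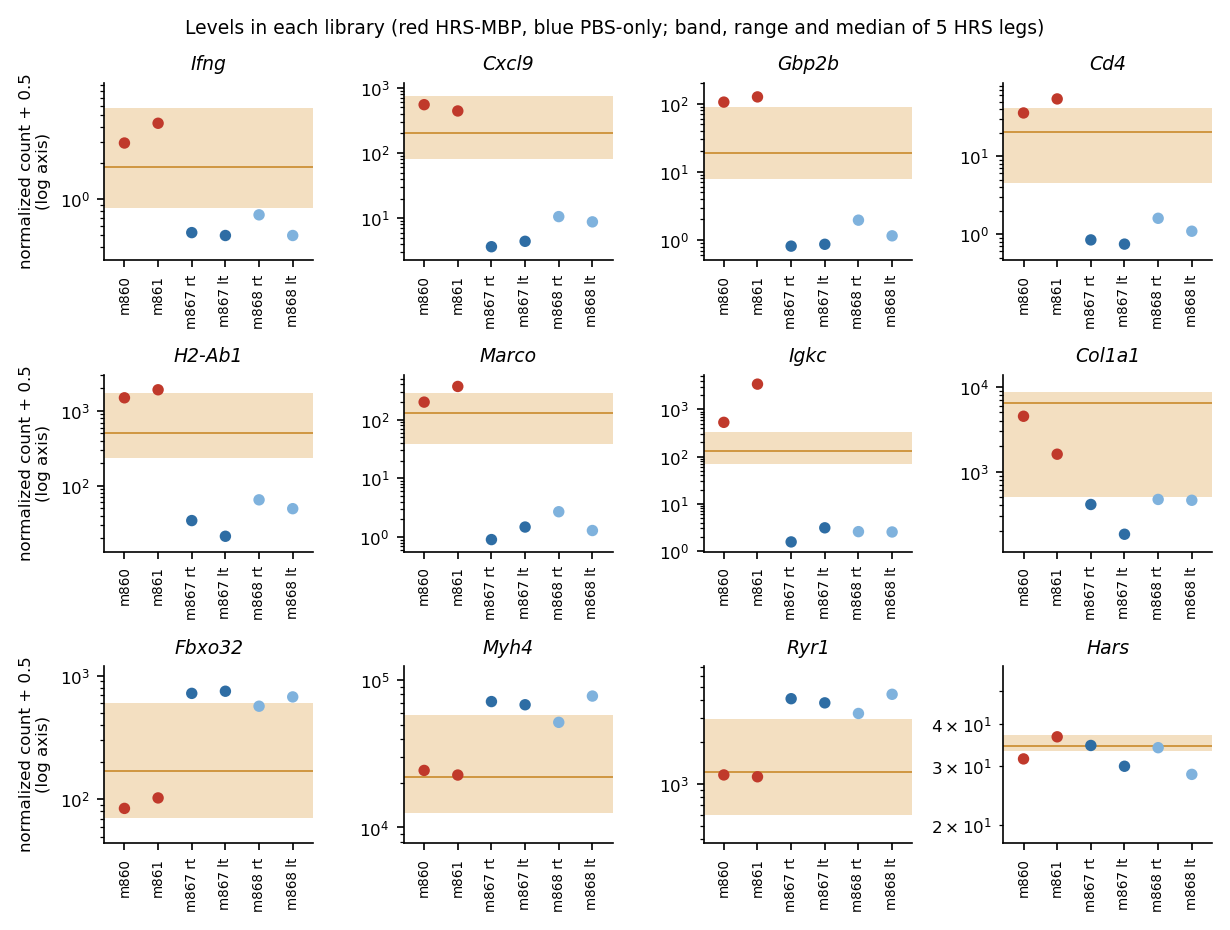
Each panel gives 1 gene in the 6 libraries as normalized count plus 0.5 on a log axis (red, HRS-MBP; dark and light blue, PBS-only m867 and m868), with the range and median of the 5 HRS legs as a band and line. HRS-MBP values lie above all PBS-only values for the immune genes and *Col1a1*, below them for *Fbxo32*, *Myh4* and *Ryr1*, and among them for *Hars*.

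Genes of T cells rose. All 18 tested genes of the T cell receptor complex and its coreceptors were called higher (median 3.83). *Cd4*, the coreceptor of helper T cells, was at 35.2 and 53.5 against 0.341, 0.243, 1.09 and 0.587 (log2 fold change 5.43 ± 0.69, adjusted p = 0.000136, limma). *Cd3g*, a chain of the CD3 complex, was at 11 and 16.4 against 0.114, 0.162, 0.243 and 0 (4.48), and *Lck*, the kinase that starts receptor signalling, at 21.3 and 26.0 against 0.142, 0.323, 0.364 and 0.0652 (5.07). None of the 3 overlapped between groups. *Cd8a*, the coreceptor of cytotoxic T cells, was at 8.07 and 10.1 against 0.114, 0, 0 and 0 (4.18).

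Genes that the study uses to describe TRMs were measured next. *Cd69* (chr6:129267325-129275436), which retains T cells in tissue, was at 4.58 and 5.98 in m860 and m861 and at 0.0568, 0, 0 and 0.0652 in the PBS-only legs, where it rested on 3 reads. Its read ratio was 146 (approximate 95% interval 49.7 to 711, counting error only) and its log2 fold change 3.44 ± 0.50 (adjusted p = 0.000308, limma). *Cxcr6*, the receptor of CXCL16, was at 6.54 and 10.5 against 0.0568, 0.202, 0.121 and 0 (log2 fold change 3.90 ± 0.62). *Prdm1*, which encodes Blimp-1, was at 6.97 and 11.01 against 1.02, 0.607, 1.21 and 1.24 (2.63 ± 0.48). Both were higher in m861 than in m860 and above all 4 PBS-only legs in either mouse. *Itgae*, the αE integrin CD103, was lower in level, at 1.57 and 1.25 against 0.256, 0.121, 0.485 and 0.456 (1.22 ± 0.27, adjusted p = 0.00431, limma), and was no longer called without mouse m867. For each of *Ifng*, *Cd69*, *Cxcr6*, *Prdm1* and *Itgae* the two-sided exact permutation p was 0.333 over 2 against 2 mice and 0.133 over 2 against 4 libraries, the smallest these numbers allow. *Runx3*, a transcription factor of tissue residency, was at 11.1 and 11.3 against 0.426, 0.323, 1.09 and 0.652 (3.43).

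Genes known from circulating T cells were also among those that rose. *Ccr7*, the receptor for lymph node entry, was at 4.05 and 5.80 against 0.284, 0.121, 0.364 and 0.130 (log2 fold change 2.90), and *Tcf7*, which encodes TCF-1, at 13.4 and 11.8 against 0.909, 0.849, 0.607 and 1.17 (3.25). Of the 25 tested genes of T cell states and lineages, 21 were called higher and 1 lower, with a median of 2.80. *Itgal*, the LFA-1 α chain, had the largest change (5.85). Checkpoint and costimulatory genes were called higher in 15 of 16 (median 2.92). *Havcr2*, which encodes TIM-3, changed by 3.78, *Icos* by 3.39 and *Cd274*, which encodes PD-L1, by 3.42. The last was at 113 and 135 against 3.60, 3.76, 32.5 and 30.9 and was not called without m861 or without m867. *Cd28*, the exception, had a log2 fold change of -0.24.

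All 13 tested NK and cytotoxic genes were called higher (median 3.67). *Ccl5*, a chemokine of effector T and NK cells, was at 233 and 294 against 0.483, 0.890, 1.94 and 1.43 (log2 fold change 7.36 ± 1.05). *Nkg7*, a cytotoxic granule protein, was at 17.5 and 17.5 against 0.142, 0.243, 0.364 and 0.456 (4.51), and *Ctsw*, the protease cathepsin W, at 11.3 and 10.96 against 0.142, 0.0404, 0 and 0.261 (4.27). The list summed to 336 and 400 normalized counts in the HRS-MBP mice, of which *Ccl5* alone gave 233 and 294, and to 1.87 to 6.55 in the PBS-only legs.

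B cell and plasma cell genes were called higher in 17 of 18 tested (median 3.11). *Jchain*, which joins polymeric antibody, was at 75.9 and 600.1 against 0.227, 0.687, 0.607 and 0.782 (log2 fold change 7.67 ± 0.90). *Pou2af1*, a B cell coactivator, was at 5.66 and 34.6 against 0, 0.121, 0.364 and 0.130 (4.52), and *Cd22*, an inhibitory receptor of B cells, at 18.0 and 11.9 against 0.284, 0.189, 0.364 and 0.261 (4.30). *Xbp1*, the secretory regulator of plasma cells that other cells share, was not called (0.68). The 3 largest rises among all genes named by the rule were immunoglobulin constant genes, and all 11 tested constant genes were called (median 6.17). *Igkc*, the κ light chain, was at 531 and 3434 against 1.05, 2.59, 2.06 and 2.02 (9.16 ± 1.02). *Ighg2b* was at 253 and 1259 against 0.171, 0.566, 0.607 and 0.587 (9.20) and *Ighg2c*, the IgG2 isotype that IFN-γ favours in this strain, at 381 and 3477 against 0.853, 1.05, 2.79 and 1.83 (9.17).

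The isotype make-up is given as shares, without a test. Of the heavy-chain constant signal, *Ighm* took 37.2% in m860 and 37.6% in m861 but 91.7% to 97.9% in the PBS-only legs, where the sum was only 55.7 to 94.0 normalized counts against 1135 and 8975. *Ighg2c* took 33.6% and 38.7% in m860 and m861, and *Ighg2b* 22.3% and 14.0%. *Ighg3* took 1.56% in m860 and 7.59% in m861, while *Ighg1* took 3.27% and 1.27%. IgG2 isotypes together were thus the main switched classes in both mice, with more *Ighg3* in m861. These shares add levels of different genes that were not scaled by length.

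Many variable segments were in use. Of 84 heavy V segments in the table, 68 in m860 and 78 in m861 held at least 3 reads, against 1 to 2 in the PBS-only legs. The leading heavy segment took 9.93% of the heavy V signal in m860 (*Ighv14-3*) and 20.3% in m861 (*Ighv1-76*). Among 83 κ segments, 62 and 78 held at least 3 reads, led by *Igkv1-135* at 10.0% and *Igkv6-15* at 7.80%. In neither mouse did 1 segment hold most of the signal. Of 171 genes annotated as V segments, which include 3 λ segments and 1 with a predicted name, 85 passed the filter on low values. That filter took the mean over all 16 libraries, so a segment could pass through the HRS-MBP libraries alone. *Igkv13-85*, for example, was at 1.61 and 17.7 in m860 and m861 and at most 0.161 in the HRS legs. Of the 85, 74 were called higher and 0 lower, and 51 were at 0 in every PBS-only library. These counts are partly set by that selection and are not independent support for a rise. V segments are near-identical copies in part, so counts of single segments are uncertain.

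Markers of lymph node stroma were examined beside the lymphocyte genes. Of 8 listed markers in the table, 3 passed the filter and were called higher: *Ccl19* at 12.8 and 14.4 against 0.347, 0.668, 0.589 and 0.421, *Cxcl13* at 6.58 and 13.2 against 0.227, 0.121, 0.728 and 0.978 and *Ccl21a* at 36.5 and 12.7 against 8.38, 7.57, 3.64 and 8.88. The defining genes of high endothelial venules and follicles were at or near 0, with *Glycam1* at 0.489 and 0.0890, *Madcam1* at 0.163 and 0.133, *Cr2* at 0.102 and 0.423 and *Chst4* at 0 in both HRS-MBP libraries. The whole list summed to 57.8 and 42.0 in the HRS-MBP mice and 5.19 to 10.6 in the PBS-only legs. *Ltb*, which encodes lymphotoxin β, was at 16.6 and 16.9 against 0.284, 0.364, 0.728 and 0.261 (log2 fold change 4.27), and 7 of 9 tested genes of lymphoid structure were called higher (median 1.604), but 4 without m867 and 5 without m860, m861 or m868. *Cxcl13* lost its call without m861 or without m867, and *Ccl21a* without m860, m867, m868 or the right leg of m868.

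Macrophage and monocyte genes gave 22 higher and 2 lower of 27 tested (median 4.41). *Marco*, a scavenger receptor, was at 199 and 369 against 0.398, 0.970, 2.18 and 0.782 (log2 fold change 7.54 ± 0.88). *Clec4e*, the Mincle receptor, was at 77.6 and 169.9 against 0.483, 0.526, 1.70 and 0.130 (6.73), and *Fcgr4*, an activating receptor for IgG2, at 89.2 and 102 against 0.284, 0.566, 0.970 and 0.717 (6.44). All 3 were without overlap. *Retnla*, a marker of IL-4-driven macrophages, moved the other way: it was at 0.649 and 0.178 against 43.7, 16.1, 58.8 and 45.4 (-5.41 ± 0.78), the largest fall among the genes named by the rule. *Cd163*, a hemoglobin scavenger receptor of resident macrophages, also fell (-1.63), from 20.7, 8.41, 14.7 and 18.3 to 4.73 and 4.14.

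Dendritic cell genes gave 11 higher and 1 lower of 14 (median 2.76). *Itgax*, which encodes CD11c, changed by 4.44, *Irf8* by 3.88 and the cross-presenting cell marker *Xcr1* by 3.05, whereas *Cd209a* was at 0.468 and 0.645 against 3.35, 0.890, 3.52 and 3.19 (-1.504). Neutrophil genes were called in 3 of 12 tested, *Csf3r* (5.31), *Lcn2* (3.85) and *Mmp9* (3.25), with a median of 1.77 that ran from 0.84 (pseudocount 2) to 4.16 (limma-voom). That share is near the 19.6% of all tested genes. The count was 9 without HRS leg m866 and 9 with the HRS-MBP and PBS-only mice alone, and 8 with the mouse as a block. *S100a8*, an abundant calprotectin subunit, was at 6.03 and 1.85 in m860 and m861 against 0.0284, 0.243, 0.121 and 0.326 and was not called (adjusted p = 0.071, limma). Its partner *S100a9* was at 8.15 and 1.73 against 0.0568, 0.243, 0.243 and 0.261, with m860 the higher mouse in both, and was not called either (adjusted p = 0.0818, limma). *Cd209a* lost its call without m860 or without m868.

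Mediators of innate immunity rose across several families. Among other cytokines and chemokines 18 of 21 were called higher and 1 lower (median 2.84). *Ccl8*, a monocyte chemokine, was at 206 and 119 against 2.02, 1.42, 7.04 and 4.95 (log2 fold change 5.39), *Cxcl16*, the ligand of CXCR6, changed by 4.57 and the IL-1 antagonist *Il1rn* by 4.42. The lower member was the eosinophil chemokine *Ccl24*, at 0.163 and 0.423 against 3.75, 1.82, 2.06 and 2.02 (-1.85). Complement genes were called higher in 14 of 16 (median 3.58), led by *Cfb*, factor B of the alternative pathway, at 581 and 828.5 against 14.1, 7.77, 24.8 and 23.4 (5.40). *C3ar1*, the C3a receptor, changed by 4.94 and the C1q chain *C1qb* by 4.88. In the left leg of m867 the summed complement level was 533, below 893 to 967 in the other PBS-only legs.

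All 14 genes of pyroptosis and necroptosis were called higher (median 3.74). *Mefv*, which encodes pyrin, was at 21.2 and 27.3 against 0.0853, 0.364, 0.121 and 0.0652 (log2 fold change 5.24), *Nlrp3* at 29.96 and 32.3 against 0.313, 0.202, 1.70 and 1.11 (4.73) and *Casp1*, the inflammasome protease, at 41.3 and 50.1 against 2.07, 0.526, 3.03 and 1.69 (4.43). Acute-phase genes rose in 6 of 7. *Saa3*, the serum amyloid A made outside the liver, was at 634 and 901 against 1.99, 4.85, 7.28 and 2.67 (7.47 ± 1.13), and the serine protease inhibitor *Serpina3g* changed by 6.73. Subunits of the phagocyte NADPH oxidase were among the 9 called higher in a list of 19 for heme, iron and oxidative stress: *Cybb* by 5.61, *Ncf1* by 4.91 and *Ncf4* by 4.90. *Nqo1*, a quinone reductase, was lower, at 4.44 and 6.16 against 52.9, 50.6, 26.8 and 26.7 (-2.72), and lost its call without m860, m861 or m867. The median of that list (0.07) changed sign with scaling.

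Genes of dividing cells rose in 20 of 22 tested (median 2.91). *Mki67* was at 39.2 and 56.1 against 1.19, 2.06, 1.21 and 1.43 (log2 fold change 4.61 ± 0.72), *Top2a*, the DNA topoisomerase of dividing cells, at 27.4 and 28.5 against 1.25, 1.37, 2.06 and 0.782 (3.97) and the mitotic cyclin *Ccnb2* at 6.78 and 6.67 against 0.369, 0.0809, 0.121 and 0.261 (3.37). The helicase subunits *Mcm2* and *Mcm7* were not called, at 0.69 and 0.70. The 2 HRS-MBP mice were alike here, with list sums of 333 and 341 against 60.2 to 65.5.

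Vessel and stromal genes showed a narrower change. Of 18 endothelial genes 6 were called higher and 2 lower (median 0.19, negative after centring), beside 19.6% and 9.27% of all tested genes. The adhesion molecules *Icam1*, at 124 and 141 against 6.76, 4.29, 6.43 and 9.71 (log2 fold change 4.24), and *Vcam1*, at 69.2 and 89.4 against 5.37, 4.77, 6.19 and 7.11 (3.65), led it, with *Selp* at 1.53. The VEGF receptor *Kdr* fell (-1.12) from 52.4, 60.3, 42.5 and 60.9 to 27.5 and 21.5, by less than the fold threshold without m861. The other lower gene, named after its value was seen, was the VEGF receptor *Flt1* (-1.05), and 0 or 1 gene was called lower when 1 of the 4 mice was left out. *Pecam1* (0.41) and *Cdh5* (-0.06), which all endothelium expresses, were not called. Fibroblast genes gave 4 higher and 1 lower of 16, beside 19.6% and 9.27% of all tested genes, and 8 and 0 after scaling to the same total. *Ly6a*, which encodes Sca-1 and which interferon also induces, changed by 2.45, the alarmin *Il33* by 2.34, *Dpp4* by 1.48 and the lower *Smoc2* by -1.06. *Dpp4* lost its call without m861 and *Smoc2* without m868.

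Matrix genes depended on the mouse. Of 27 tested, 8 were called higher and 0 lower (median 1.84), beside 19.6% and 9.27% of all tested genes, and without m867 or m868 2 and 3 were. The list summed to 19532 in m860, 8229 in m861 and 2049 to 3734 in the PBS-only legs. *Timp1*, an inhibitor of matrix proteases, was at 14.4 and 4.91 against 0.512, 0.202, 0.485 and 0.261 (log2 fold change 3.39), *Mmp14* at 275 and 192 against 30.6, 20.3, 27.3 and 26.9 (3.12) and the macrophage elastase *Mmp12* at 57.8 and 6.65 against 0.995, 1.25, 3.88 and 0.847 (3.36). Without m860 none of the 27 was called and the median was 1.06, and without m861 4 were called and the median was 2.696. Other fits gave more calls: 22 without HRS leg m866, 21 with the HRS-MBP and PBS-only mice alone, 19 with the mouse as a block, 18 with the legs separate and 17 by limma-voom. *Tnc*, a glycoprotein of remodelling tissue, was at 259.6 and 9.34 against 5.12, 4.73, 10.7 and 4.43 and was not called (3.00 ± 1.92).

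**Figure D3:**
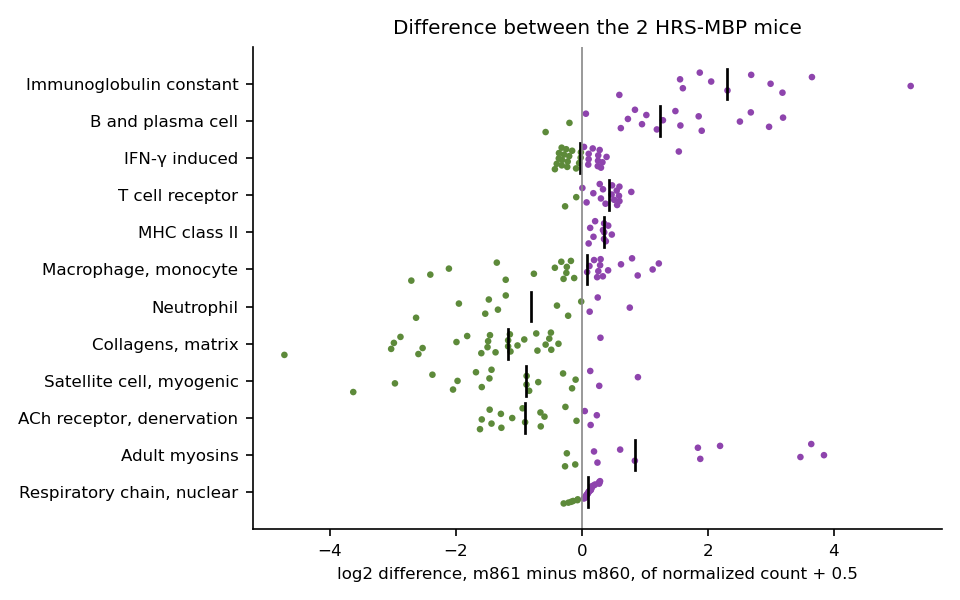
Each point is 1 gene of a list, placed by its log2 difference between HRS-MBP mouse m861 and mouse m860 (1 library each, purple above 0 and green below), with the list median as a bar. Immunoglobulin and B cell genes lie toward m861, collagens and matrix genes toward m860, and IFN-γ-induced genes around 0.

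Over all genes the 2 HRS-MBP mice were close to each other, whereas several lists differed between them. Among 11829 genes with at least 5 normalized counts in the higher library, 156 were higher and 217 lower in m861 by more than 1 on the log2 scale, and the median absolute difference was 0.15. Between the 2 legs of 1 PBS-only mouse the same measure was 0.14 (m867) and 0.24 (m868), and between HRS legs of different mice it ran from 0.11 to 0.69. These differences are given without a test, since each is 1 library against 1. Immunoglobulin constant genes were higher in m861 in 11 of 11, with a median difference of 2.31 (*Ighg3*, 17.7 and 681), and B and plasma cell genes in 16 of 18 (median 1.24). V segments were higher in m861 in 80 of 85 (median 2.80), a count partly set by selection, since a segment could pass the filter through m861 alone. Smaller differences in the same direction were found for the T cell receptor list (16 of 18, median 0.43), class II (11 of 11, 0.35), the TCA cycle and fatty acid oxidation (27 of 27, 0.29), fat markers (7 of 7, 0.95) and myosins with their partners (10 of 13, 0.84). Over all 16414 genes 49.8% were higher in m861 and 50.2% in m860, and the share past 1 on the log2 scale was 1.27% and 2.07%. Matrix genes were higher in m860 in 26 of 27, with *Tnc*, *Tnn* (10.1 and 0.0445) and *Lrrc15* (26.1 and 0.445), a surface protein of activated fibroblasts, among the largest. Tendon markers summed to 331 in m860 and 119 in m861, with *Thbs4*, a thrombospondin of tendon, at 279.9 and 76.4, and their part in the matrix difference was not tested. Only 3 of 17 acetylcholine receptor and denervation genes, 3 of 19 satellite cell genes and 3 of 12 neutrophil genes were higher in m861, with median differences of -0.90, -0.88 and -0.80. The slow light chain *Myl2* was at 1.77 and 32.2 in m860 and m861. IFN-γ-induced genes were split, with 13 of 30 higher in m861, and the median difference was -0.03.

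Contractile genes lay lower. Of myosins and proteins that bind or regulate them, all 13 tested lay below every PBS-only leg in both HRS-MBP libraries, where 30.6% of all tested genes did, and 5 were called lower (median -1.501). The lower calls were 4, 4 and 7 under the 3 scalings and 8 without HRS leg m866, and 2 to 4 when 1 of the 4 mice was left out. Of these 5, 4 were slow, cardiac or extraocular forms and the fifth was the kinase *Mylk2* (-2.05). *Myh6* was at 0.281 and 3.08 against 37.1, 61.1, 152 and 68.4 (log2 fold change -5.39 ± 0.93), *Myh7*, the slow fibre myosin, at 8.95 and 118 against 660.4, 963, 541 and 965 (-4.51 ± 1.45) and the slow light chain *Myl3* at 2.59 and 33.8 against 88.0, 189, 99.8 and 155 (-3.63). In each of these, m861 was closer to the controls than m860. *Myh13*, the extraocular form, changed by -3.30. *Myh4*, the main fast myosin of this muscle, was at 24387 and 22692 against 71560.2, 68089.7, 51724 and 77996 and was not called (-1.501 ± 1.27, adjusted p = 0.334, limma). *Myh7* and *Myl3* lost their calls without m860, m867 or m868.

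Other fibre genes showed the same shift in level. Of 24 genes of the sarcomere, Z-disc and membrane, 22 lay below all PBS-only legs (30.6% of all tested genes did) and 3 were called lower, near the 9.27% of all tested genes (median -1.16): the fast troponin I *Tnni2* (-1.51) and the sarcoglycans *Sgca* (-1.24) and *Sgcb* (-1.04). This count rested on the fit: it was 0 or 1 when 1 of the 4 mice was left out, 1, 2 and 14 under the 3 scalings, 14 without HRS leg m866 and 16 by limma-voom. Calcium handling genes gave 9 lower and 1 higher of 17 (median -1.48), with 8, 8 and 12 lower under the 3 scalings. *Mrln*, which encodes the SERCA inhibitor myoregulin, was at 5.15 and 3.05 against 25.8, 31.9, 26.9 and 27.2 (log2 fold change -2.66) and the calcium release channel *Ryr1* at 1160.4 and 1125 against 4116, 3841, 3220.5 and 4428 (-1.76). *Sln*, which encodes sarcolipin, another SERCA inhibitor, went up instead, from 1.28, 5.34, 1.94 and 1.89 to 92.3 and 51.9 (4.64 ± 1.304). Its call was lost without m860, m867 or m868, and the lower calls of the list fell from 9 to 2 when any 1 of the 4 mice was left out, and were 11 without HRS leg m866.

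Genes of energy metabolism lay lower as well, with counts of calls that depended on the fit. Of 28 nuclear-encoded respiratory chain genes, all lay below every PBS-only leg and 22 were called lower (median -1.16). Of all tested genes, 30.6% lay below every PBS-only leg and 9.27% were called lower, shares that hold for the lists that follow as well. *Cox8b*, a muscle form of complex IV, was at 52.1 and 54.5 against 155, 213, 225 and 157 (log2 fold change -1.78), with *Ndufa4* at -1.55 and the ATP synthase gene *Atp5g1* at -1.46. All 13 mitochondrially encoded subunits were lower in level too, 4 of them called (median -1.43), with *mt-Nd4l* at -1.92, *mt-Nd3* at -1.85 and *mt-Co3* at -1.72. Their calls were 4, 3 and 9 under the 3 scalings, 12 without HRS leg m866 and 13 by limma-voom, and after quantile normalization the median was -0.27. The TCA cycle and fatty acid oxidation gave 15 lower of 27 (median -1.11), among them *Idh3a* (-1.45), *Suclg1* (-1.34) and *Sucla2* (-1.31), and the lower calls were 0, 5 and 22 under the 3 scalings. The nuclear respiratory calls fell to 2 or 3 when any 1 of the 4 mice was left out, to 2 after scaling to the same total and to 10 after quantile normalization, and rose to 28 after centring. With 1 of these mice left out, the mitochondrially encoded and the TCA cycle lists each had 0 or 1 call. The median of the nuclear list stayed negative in all 21 alternatives.

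Glycolysis and glycogen genes gave 12 lower and 2 higher of 23 (median -1.17), with 5, 7 and 19 lower under the 3 scalings. The phosphorylase kinase subunit *Phka1* was at 239.6 and 212 against 1222, 1200.1, 713 and 1019 (log2 fold change -2.17) and the lactate dehydrogenase *Ldhb* changed by -1.71. *Hk1*, the hexokinase of most cells other than fibres, rose from 18.7, 14.4, 13.5 and 16.5 to 88.9 and 89.1 (2.47). When 1 of the 4 mice was left out, only 0 or 1 genes of the list were called lower. Lipogenic and adipocyte genes gave 3 lower of 17 (1, 3 and 6 under the 3 scalings), beside 9.27% of all tested genes: the desaturase *Scd1* at 28.2 and 65.1 against 642, 354, 652 and 577 (-3.64), the carboxylesterase *Ces1d* at 9.37 and 19.7 against 149, 136, 92.0 and 90.1 (-3.02) and *Car3* (-1.27). Adipocyte markers moved with them: 6 of 7 tested fat markers were below -1 on the log2 scale and none was called (0 at an unadjusted p under 0.05, limma, and 1 lower by limma-voom, but 6 lower with the HRS-MBP and PBS-only mice alone and 4 against the contralateral PBS legs), with list sums of 75.2 and 140 in the HRS-MBP mice and 290 to 545 in the PBS-only legs. Their part in the lipogenic falls was not tested. *Scd1*, *Ces1d* and *Car3* each lost the call in at least 3 of the 4 fits that left out a mouse, whereas 5 lipogenic genes were called lower without HRS leg m866 and 13 with the HRS-MBP and PBS-only mice alone.

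Genes of atrophy and repair did not move one way. Of 18 atrophy and growth regulators 4 were called higher and 4 lower (3, 5 and 5 lower under the 3 scalings), beside 19.6% and 9.27% of all tested genes, and the list median (0.12) changed sign with scaling. *Fbxo32*, which encodes the ubiquitin ligase atrogin-1, was at 84.1 and 102 against 720.4, 749.6, 567 and 674 (log2 fold change -2.85 ± 0.67), and *Trim63*, which encodes MuRF1, changed by -1.74. *Mstn*, which encodes the growth inhibitor myostatin, changed by -1.99. With any 1 of the 4 mice left out, 1 gene of the list was called lower. Higher members were the metallothionein *Mt2*, at 33.5 and 34.0 against 2.84, 2.54, 4.49 and 3.06 (3.22), and the cell cycle inhibitor *Cdkn1a* (2.01). Among 19 satellite cell and fusion genes, 1 was higher and 1 lower, below the shares of all tested genes, and without HRS leg m866 6 were higher. *Mymk*, which encodes the fusogen myomaker, was at 24.3 and 7.23 against 1.25, 1.13, 0.485 and 0.326 (3.49 ± 1.34) and lost its call when any 1 of the 4 mice was left out. *Cdh15*, the satellite cell cadherin, changed by -1.01 and lost its call in each of these fits as well. Embryonic myosin *Myh3* was at 204 and 38.9 against 6.83, 12.2, 18.9 and 10.8 and was not called (adjusted p = 0.178, limma). Among 17 genes of the acetylcholine receptor and denervation, *Ankrd1* (4.004), the fetal subunit *Chrng* (3.45) and *Runx1* (2.85) rose and the sodium channel *Scn4a* (-1.85) fell, in all 3 higher and 2 lower, shares near the 19.6% and 9.27% of all tested genes. The lower calls were 1, 6 and 6 under the 3 scalings. Without m860 or without m867 none of the 3 rises was called, and without HRS leg m866 the list gave 6 higher and 4 lower.

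No difference was detected in the gene of the injected protein. *Hars*, the mouse gene of HRS, was at 31.0 and 36.2 in the HRS-MBP mice and at 34.1, 29.5, 33.5 and 27.9 in the PBS-only legs. The ranges overlapped, the log2 fold change was 0.10 ± 0.13 (adjusted p = 0.512, limma), and the exact permutation p was 0.533 over libraries and 0.667 over mice. None of the 22 aminoacyl-tRNA synthetases was called in either direction by limma or by limma-voom (median -0.29). After centring 6 were called lower (median -0.72), and after scaling to the same total 1 was called higher. As reported, at an unadjusted p under 0.05 there were 0 higher and 8 lower. The largest were *Eprs* (-0.95), *Mars1* (-0.85) and *Iars* (-0.80), which passed the adjusted p (0.0197, 0.0270 and 0.0456, limma) but not the fold threshold, and the interferon-inducible *Wars* had 0.68. The list median turned positive (0.17) after scaling to the same total. Genes of endoplasmic reticulum stress and the amino acid response gave 7 higher and 0 lower of 20 (median 0.81), beside 19.6% and 9.27% of all tested genes, with 11, 7 and 3 higher under the 3 scalings, led by *Edem1* (2.74), the mitochondrial folate enzyme *Mthfd2* (2.53) and *Pdia4* (2.31).

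Markers of other tissues that a dissection could carry were examined. Of 6 tested keratinocyte markers 1 was called, *Sfn* at 4.46 and 8.72 against 1.93, 1.54, 2.18 and 2.28, while *Krt5*, *Krt14* and *Dsg3* were at 0 in both HRS-MBP libraries. The keratinocyte list summed to 5.92 and 10.1 in the HRS-MBP mice and 3.60 to 5.27 in the PBS-only legs. Erythrocyte markers summed to 400 and 407 against 428 to 726, with 0 of 5 called (0 at an unadjusted p under 0.05, limma, and 0 by limma-voom), and tendon markers to 331 and 119 against 32.3 to 145, with 0 of 7 called (2 at an unadjusted p under 0.05, limma, 2 by limma-voom and 3 without HRS leg m866). Nerve and Schwann cell markers gave 2 higher (*Mag* and *Cnp*) and 2 lower (*Sox10* among them) of 10, beside 19.6% and 9.27% of all tested genes, with sums of 152 and 274 against 186 to 379. *Sfn*, *Mag*, *Cnp* and *Sox10* each lost the call in 2 or more of the 4 fits that left out a mouse of these groups.

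The 2 PBS-only mice were not alike. For 26 of the 30 IFN-γ-induced genes (86.7%) both m868 legs lay above both m867 legs, beside 1647 of 16414 tested genes (10.0%). The same held for 21 of 25 type I interferon-stimulated genes, 17 of 20 class I genes and 9 of 11 class II genes, and for 4 of 18 T cell receptor genes. It held as well for 15 of 27 macrophage genes, 7 of 14 dendritic cell genes, 8 of 16 complement genes and 5 of 5 erythrocyte markers (median 0.63), whose part in the difference was not tested. Both m868 legs lay below both m867 legs for 0 genes of the IFN-γ list and for 4143 of all tested genes. The m868 libraries were shallower (8600000 and 17200000 implied reads) than those of m867 (40700000 and 29700000), and the part of depth was not tested. The median log2 difference, m868 minus m867, was 1.43 for the IFN-γ list and -0.08 for all tested genes. *Cxcl9*, for instance, was at 3.15 and 3.92 in the m867 legs and at 10.1 and 8.28 in the m868 legs. The median rise of the IFN-γ list in HRS-MBP mice was thus 4.91 against m867 alone and 3.11 against m868 alone. With m867 left out, 23 of the 30 genes were called higher, and with m868 left out, 28. No treatment that differed between these mice is given in the labels.

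Few genes separated HRS-MBP muscle from the HRS legs. Only 49 of 16414 genes (0.299%) were called between them, 40 higher (0.244%) and 9 lower (0.0548%), and 2380 had an unadjusted p under 0.05. The IFN-γ list (30 genes), class II (11) and the T cell receptor list (18) gave 0 calls each by limma and by limma-voom. Their median log2 differences, HRS-MBP minus HRS leg, were 1.02, 1.34 and 1.26, and at an unadjusted p under 0.05 they held 5, 10 and 12 higher genes and 0 lower. The matrix list (27) gave 0 calls and 0 genes at an unadjusted p under 0.05 (median -0.59). HRS legs differed widely among themselves: the IFN-γ list summed to 1603 to 7473 normalized counts in the 5 legs and to 7429 and 6892 in the HRS-MBP mice. Of the 49 calls, 26 were immunoglobulin genes, all higher. *Iglc1*, a λ constant gene, was at 11.5 and 49.5 against 1.19 to 3.33 in the HRS legs (log2 difference 3.42, adjusted p = 0.00414, limma). *Ighv14-3* was at 13.2 and 16.02 against at most 0.498, with a difference of 4.46. Both HRS-MBP libraries lay above all 5 HRS legs for 43 of the 85 tested V segments, as for 7.1% of all tested genes, and 25 were called. Since V segments could pass the filter through the HRS-MBP libraries alone, these counts are partly set by selection and the 7.1% is not a like baseline. Another 13 were pseudogenes (8 higher and 5 lower, among 1319 tested), such as *Rpsa-ps1* (-1.30), whose reads cannot be told apart securely from those of their parent genes. The number of calls was unstable: it was 108 without m860, 19 without m861 and 144 without HRS leg m866, whose score on the first principal component (77.3% of the variance) was 2.84 against -123.3 to -65.4 in the other HRS legs.

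Clock genes made up another 6 of the 49. The circadian clock is a feedback loop in which ARNTL (BMAL1) with CLOCK or NPAS2 drives *Per*, *Cry* and *Dbp* through E-boxes, so that genes of the positive limb peak when those of the negative limb are low. The list of 20 clock genes was drawn up after these values had been seen. *Dbp* (chr7:45705088-45710203), an output factor of the loop, was at 84.3 and 76.2 in m860 and m861 against 23.1, 20.1, 17.5 and 19.9 in the PBS-only legs and 11.9 to 18.4 in the HRS legs. It was called against both groups, in comparisons that share the HRS-MBP libraries (log2 difference 1.97 ± 0.28 and 2.39, adjusted p = 0.000246 and 0.000392, limma). *Per2*, a repressor of the loop, was at 26.7 and 32.3 against 6.91, 4.93, 4.85 and 3.59 and 7.07 to 10.2 (2.46 and 1.79). *Per3* was at 29.5 and 31.2 against 15.3, 14.7, 12.9 and 15.6 and 7.13 to 13.8 (1.03 and 1.498), and the kinase *Wee1*, a clock output, at 14.3 and 20.8 against 7.79, 7.60, 5.22 and 7.04 and 5.13 to 8.19 (1.27 and 1.31). All 4 lay above the other 14 libraries of the series.

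The activators *Arntl* and *Npas2* went the other way. *Arntl* was at 6.74 and 5.83 in m860 and m861 against 42.6, 38.9, 36.2 and 41.7 in the PBS-only legs and 17.6 to 39.8 in the HRS legs (log2 difference -2.57 ± 0.29 and -1.85). *Npas2* was at 1.61 and 0.712 against 4.43, 3.23, 2.55 and 3.06 and 4.95 to 8.69 (-1.23 and -2.20). Both lay below the other 14 libraries, as did *Clock*, *Cry1* and *Nfil3*. The activator *Clock* (-0.68) passed the adjusted p against PBS-only mice but not the fold threshold. Repressors did not all rise as *Per2* and *Per3* did. The repressor *Cry1* was called lower (-1.07), and the repressors *Cry2* (-0.68) and *Bhlhe40* (-0.70) were lower by less than the fold threshold. In all, 6 of the 20 clock genes lay above and 5 below the other 14 libraries, beside 5.12% and 4.53% of all tested genes. Against the PBS-only mice 5 rose and 6 fell by the test, beside 19.6% and 9.27% of all tested genes, whereas against the HRS legs 4 rose and 2 fell. HRS legs themselves differed from PBS-only mice in 0 higher and 3 lower, where 18.1% and 5.25% of all tested genes were called. *Per1* (0.50), *Nr1d1* (-0.58) and *Nr1d2* (-0.07) were not called. *Per3* lost its call against PBS-only mice without m861, without m868 and without the right leg of m868, and *Npas2* without m861 and without m867. The hour at which muscle was collected is not given in the sources used here, and its part in these values was not tested.

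**Figure D4:**
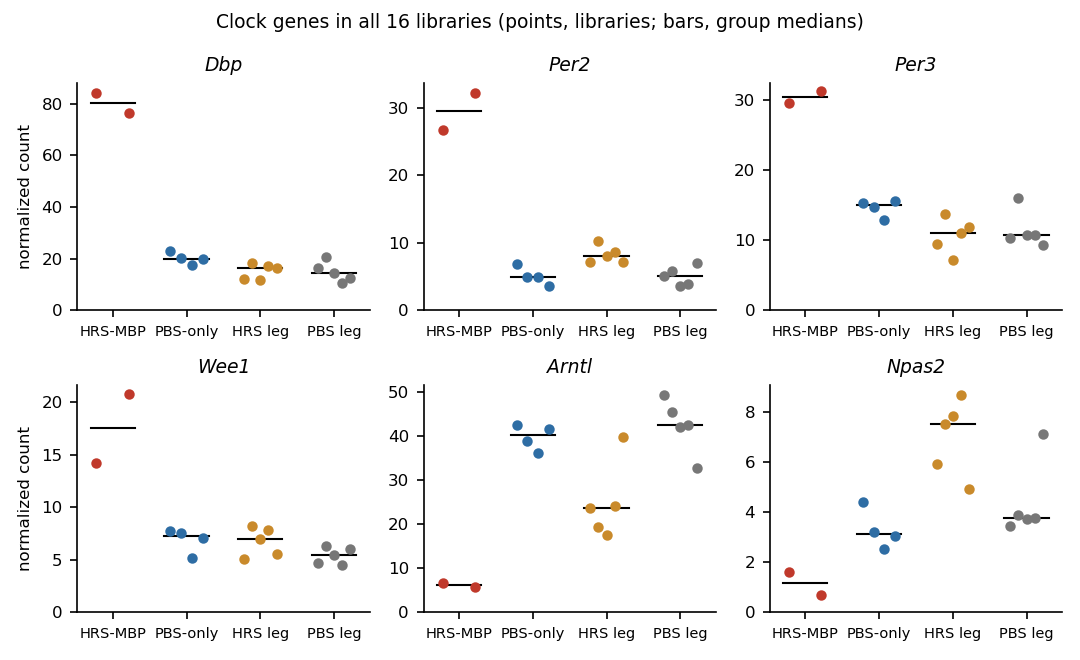
Normalized counts of 6 clock genes in all 16 libraries, 1 point per library, with group medians as bars, by group (HRS-MBP 2, PBS-only 4, HRS leg 5, PBS leg 5). The HRS-MBP points stand above all others for *Dbp*, *Per2*, *Per3* and *Wee1* and below all others for *Arntl* and *Npas2*.

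Promoters of 2 clock genes that were higher in HRS-MBP muscle are printed in the same form as above, on the minus strand of the chromosome. They were picked because they hold letters through which the loop acts. Capitals mark the E-box (CACGTG) in *Ciart*, a clock repressor that changed by 1.38 against PBS-only mice, and the D-box (TTATGNAA, bound by DBP and its relatives) in *Per3*.
Ciart, chr3:95882229-95882478, minus strand: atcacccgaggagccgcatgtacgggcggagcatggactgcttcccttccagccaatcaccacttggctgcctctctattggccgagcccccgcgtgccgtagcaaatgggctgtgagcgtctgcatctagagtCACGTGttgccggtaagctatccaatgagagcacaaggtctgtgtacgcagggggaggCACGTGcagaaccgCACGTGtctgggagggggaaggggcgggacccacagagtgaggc
Per3, chr4:151044666-151044915, minus strand: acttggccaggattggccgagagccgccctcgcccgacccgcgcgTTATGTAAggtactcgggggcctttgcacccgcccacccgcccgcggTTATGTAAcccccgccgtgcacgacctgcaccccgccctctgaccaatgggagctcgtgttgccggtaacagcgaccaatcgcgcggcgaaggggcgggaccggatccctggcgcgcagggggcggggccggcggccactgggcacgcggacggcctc
The E-boxes of *Ciart* began 116, 58 and 44 bases before the RefSeq start, which lies 23 bases from the annotated start, and the D-boxes of *Per3* 205 and 158 bases before it. An E-box occurred in 5 of 16 matched clock promoters and in 9.97% of all matched promoters, and a D-box in 2 of 16 and in 2.08%. The E-box promoters were those of *Per1*, *Cry1*, *Tef*, *Ciart* and *Bhlhe41*. Against PBS-only mice *Ciart* was called higher and *Cry1* lower (-1.07), and *Per1* (0.50), *Tef* (-0.61) and *Bhlhe41* (-0.23) were not called. The promoter of *Dbp* held neither pattern, so these letters did not mark the genes that rose.

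**Figure D5:**
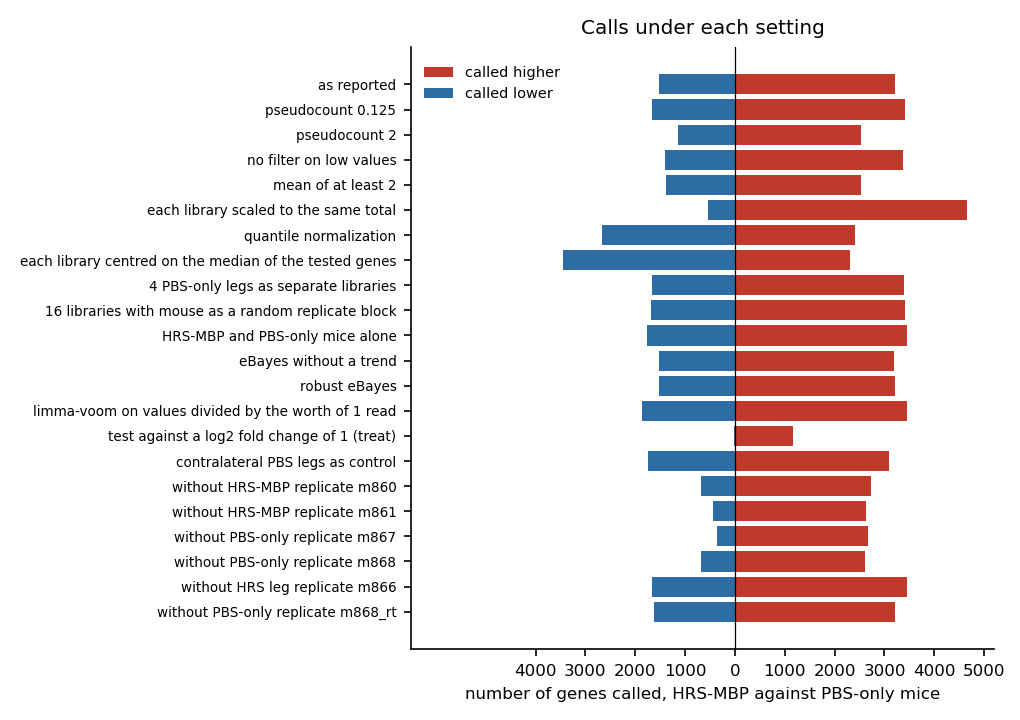
Number of genes called higher (red, to the right) and lower (blue, to the left) in HRS-MBP against PBS-only mice under each processing setting. Higher calls stay between 1164 and 4655, while lower calls run from 13 (test against a log2 fold change of 1) to 3456 (centring on the median gene).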

How the data were processed

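RNA of hamstring muscle was measured in 16 libraries of 9 mice, of which 2 HRS-MBP and 4 PBS-only libraries form this comparison. The authors deposited normalized counts per gene, a linear signal with no value under 0. The method of scaling is not given in the sources used here. The submitters' processing notes name STAR 2.7.8a, limma and mm39 (GRCm39). The coordinates of the table, however, match GENCODE M21 (GRCm38): of 26382 genes, 25652 matched by symbol and chromosome, with an identical start and, after taking 1 off, an identical end in 99.0% of the matches. They are printed as GRCm38. All 16 columns of per-sample values were used. Of low values (up to 20 steps, tolerance 0.02), 75.3% to 77.7% were whole multiples of 1 step, too few to take whole reads as recovered over the table, so that no count model gave the calls. Where the text gives reads of a gene, they are its values divided by this step and rounded, and ratios, their intervals and limma-voom on such values are approximate. The step gave the worth of 1 read and an implied depth of 8600000 to 40700000 reads in these 6 libraries, the shallowest being the right leg of m868. Whether counting used strand is not given in the sources used here, and values of overlapping and antisense genes are uncertain.

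Values were taken as log2(normalized count + 0.5), the 2 legs of a PBS-only mouse were averaged, and genes whose mean over 16 libraries reached 0.5 were kept (16414). In R 4.3.3, limma 3.58.1 (lmFit, eBayes with a trend) was fitted to 14 units in 4 groups with 10 residual degrees of freedom. Adjusted p is Benjamini-Hochberg over all tested genes, and calls needed an adjusted p under 0.05 and an absolute log2 fold change above 1. With 2 mice a group, p-values rest on the spread shared with the other groups. The model was first tested on simulated data.

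The members, gene lists and named genes were chosen with earlier results of these data known. Named were *Hars* and 5 genes of IFN-γ and TRMs, the 10 largest rises and falls among genes without overlap (higher mean at least 5, no V, D or J segments and no predicted genes), the 3 largest calls of each list and its largest opposite one, the 5 largest each way against HRS legs, the 5 largest differences between m860 and m861, and markers of other tissues. Some genes that this rule names are not reported here. The clock list was added after its values were seen. Other settings tried were 2 pseudocounts, 2 filters, 3 scalings, legs as separate libraries, a mouse block, the variance model, limma-voom, the control group and each mouse left out. The fit without the right leg of m868 was chosen after seeing the data.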

Additional observations from a re-analysis of the deposited data

Results flagged for a closer look

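In 3 of 47 groups of values examined, 1 PBS-only library stood far from the other 3. The cutoff is set to mark about 1 in 20 groups of independent values by chance, a rate that was not measured here. The left leg of m867 had the lowest log2 summed level of complement genes (9.06) and of collagens and matrix genes (11). The right leg of m868, the shallowest library, had the lowest log2 summed level of muscle fibre markers (17.5). The 4 libraries come from 2 mice, and the causes were not tested.

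A difference between HRS-MBP mice and the HRS legs, each against the same PBS-only mice, passed both the adjusted p and the fold threshold by limma for 8 named genes. It was higher in HRS-MBP for *Iglc1* (log2 difference 3.42), *Dbp* (2.39), *Per2* (1.79), *Per3* (1.498) and *Wee1* (1.31). It was lower for *Npas2* (-2.20), *Arntl* (-1.85) and the pseudogene *Rpsa-ps1* (-1.30). In each of the 8 both HRS-MBP libraries lay on the same side of all 5 HRS legs.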

How the results depend on the processing

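The number of genes called between HRS-MBP and PBS-only mice was 4735 and stayed within 1.5 times of that under all alternatives but limma's treat against an absolute log2 fold change of 1 (1177) and some fits without 1 mouse (3037 to 5116, the lowest without m867, and 3065 without m861). Higher calls fell to 1164 with treat. Lower calls, 1521 as reported, were 547 after scaling to the same total, 2664 after quantile normalization, 3456 after centring, 13 with treat, and 367 to 1665 with 1 mouse left out (680 without m860, 442 without m861, 367 without m867, 676 without m868). Why the lower calls moved was not tested. Against the HRS legs, 49 calls became 88 without a filter, 26 with a mean of at least 2, 76 with the legs separate, 112 with limma-voom, 12 with treat and 19 to 144 with 1 mouse left out (108 without m860, 19 without m861, 144 without HRS leg m866). No mouse is shared between these groups, so the block could enter only as a correlation between libraries of 1 mouse (-0.15). With that replicate block 5100 genes were called. Among 155 named genes, 1 changed direction: *Nr4a2* was at 0.57 with the contralateral PBS legs as control. Leaving out m860, m861, m867 or m868 removed the calls of 37, 33, 40 and 36 of the 155. Depth limits low genes: 3 reads in the right leg of m868 equal 0.364 normalized counts.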

Other observations

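Immediate early genes, which cells switch on within minutes of a stimulus, were not described above. Of 18 tested, 5 were called higher and 1 lower in HRS-MBP against PBS-only mice (median 0.80), beside 19.6% and 9.27% of all tested genes. *Egr2*, a zinc-finger factor of activated T cells and macrophages, was at 10.6 and 9.21 in m860 and m861 against 1.51, 1.86, 0.485 and 1.43 in the PBS-only legs (m867 right and left, m868 right and left; log2 fold change 2.58). *Zfp36*, which encodes the mRNA-destabilizing protein tristetraprolin, was at 66.3 and 104 against 17.2, 15.6, 15.8 and 16.6 (2.32), and *Junb* at 72.8 and 76.9 against 14.0, 17.9, 13.3 and 15.5 (2.27). For each of the 3 both HRS-MBP libraries lay above all 4 PBS-only libraries. The lower gene, the orphan nuclear receptor *Nr4a2*, was at 2.99 and 2.76 against 9.12, 8.05, 7.28 and 7.24 (-1.31). It lost its call without any 1 of the 4 mice, and its change was 0.57 with the contralateral PBS legs as control. Without HRS leg m866 the list gave 7 higher and 2 lower.

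Among the largest falls were 3 genes that belong to no list. *Mup18*, a major urinary protein and member of a family of near-identical copies, was at 0.0480 and 1.82 against 11.2, 6.87, 12.3 and 10.2 (log2 fold change -3.21), and the FGF-binding protein *Fgfbp1* at 1.34 and 2.45 against 16.1, 26.3, 17.7 and 11.6 (-2.93). Both lost their calls without m860, m867 or m868. The mitochondrial serine tRNA *mt-Ts1* was at 0.0611 and 0.0890 against 3.58, 15.1, 11.04 and 5.28 (-3.81 ± 0.57). Over the whole table, both HRS-MBP libraries lay above the other 14 libraries of the series for 841 genes (5.12%) and below them for 744 (4.53%).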
